A study of Bos taurus with 9 samples.

Results

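Follicular fluid of the bovine antral follicle bathes the oocyte and its cumulus cells, and the extracellular vesicles (EVs) in it carry small RNA between the cells of the follicle. Large (>9 mm) and medium (6–9 mm) follicles were compared here, the last step of antral growth in a series that also holds small (3–5 mm) follicles. The comparison rests on 6 of the 9 samples of the series, 3 of large follicles (replicates 10, 11 and 12) and 3 of medium follicles (replicates 5, 6 and 8). Each sample is the EV RNA of 1 pool of fluid, for which follicles of 1 diameter class from cow ovaries were aspirated and combined on a collection day. Per the study's methods 3 collections were made and each gave fluid of all 3 sizes, so pools of different sizes share a collection, but which pools belong together is not given in the sources used here, and all tests are unpaired. A pool averages many follicles, healthy and regressing, and neither the stage of the cycle nor the number of cows is given by the labels. No treatment, genotype or age was recorded for any group, and the 3 samples of small follicles enter only as part of the model and beside single results.

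MicroRNAs (miRNAs) are small RNAs cut by Dicer from a hairpin precursor, and they guide Argonaute proteins to partly complementary messenger RNAs, which are then repressed. Either arm of the hairpin can be kept as the mature miRNA, and related miRNAs share a seed, the stretch near the 5′ end that pairs with targets. EVs also carry fragments of longer RNAs, so the length of a small RNA is a first guide to its kind. In the ovary, miRNAs are known from studies of granulosa cell proliferation, steroid synthesis and follicle regression.

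The deposited table holds 101889 loci, genomic stretches of 16 to 90 bases (median 34) on which reads of the 9 samples piled up. Lengths given below are those of such stretches, which need not equal the length of a read or of an RNA molecule. Of these, 249 loci carry the name of a known miRNA, under 225 distinct names, and 101640 do not. Among the named loci 204 have a bovine (bta-) name and 45 the name of a miRNA of another species, such as goat (chi-). The authors kept a named locus where 1 of the sizes had a mean of 100 counts or more, and 134 of the 249 reached that mean in large, 172 in medium and 248 in small follicle EVs. Thus 72 loci were in the set through small follicles alone and 1, miR-150, through large follicles alone. The direction of change over the set is therefore not independent of how the authors chose it. All coordinates are those of the bovine assembly UMD3.1.

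Total counts over all loci were 12073574, 11685567 and 10641765 in medium and 9738690, 10230770 and 11689805 in large follicle EVs, given here and below in the order of replicates 5, 6 and 8 and of replicates 10, 11 and 12. Counts on the named miRNA loci were far fewer, with 468033, 437626 and 1192597 in medium and 154101, 146617 and 660594 in large follicle EVs. At this depth 3 counts correspond to 0.248 to 0.308 CPM (the count over the sample's total of all loci, scaled to 1000000). PCR copies of a read are not separate molecules, so these limits speak of counting error alone. The tests set differences against the spread between pools, which the edgeR fits estimated over all 9 samples, small follicles included. Medium replicate 8 and large replicate 12 stood apart in their groups by a higher share of miRNA (described next), and for some results values without them are given. Of the named loci, 15 had no count in at least 1 large pool and 1, miR-1388-3p, had no count in any of the 3.

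The first question was how much of the small RNA was miRNA. Named miRNA loci took 3.88, 3.75 and 11.2% in medium and 1.58, 1.43 and 5.65% in large follicle EVs. The groups overlapped, because large replicate 12 lay above medium replicates 5 and 6. The means were 6.28% ± 4.27 against 2.89% ± 2.39 (SD, n = 3), a difference that the exact permutation test did not separate from the spread between pools (two-sided p = 0.3, where 3 samples against 3 cannot give a p below 0.1). Differences within a collection could not be formed. Without medium replicate 8 and large replicate 12 the means were 3.81% and 1.51%. Since vesicle number and RNA per vesicle were not counted in these libraries, fewer miRNA molecules and more RNA of other kinds cannot be told apart.

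By length, loci of 36 to 50 bases made up the largest part of the counts in all 6 samples, and theirs was the single class in which the groups did not overlap. These 21876 loci, none of them a named miRNA, took 37.5, 34.6 and 26.9% in medium and 44.8, 45.1 and 37.9% in large follicle EVs. Their mean share was 33.0% ± 5.50 against 42.6% ± 4.11 (SD, n = 3), with an exact permutation p of 0.1, the smallest that 3 against 3 allows (0.6 after Benjamini-Hochberg adjustment over 6 classes). Most of that share lay at 39 to 41 bases, where 3618 loci took 31.5, 26.3 and 21.3% in medium and 37.4, 36.6 and 31.4% in large follicle EVs (exact permutation p = 0.2). Loci of 40 bases alone took 22.1, 18.1 and 15.3% in medium and 26.7, 25.6 and 21.7% in large follicle EVs, the highest peak of the profile by single length.

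**Figure D1:**
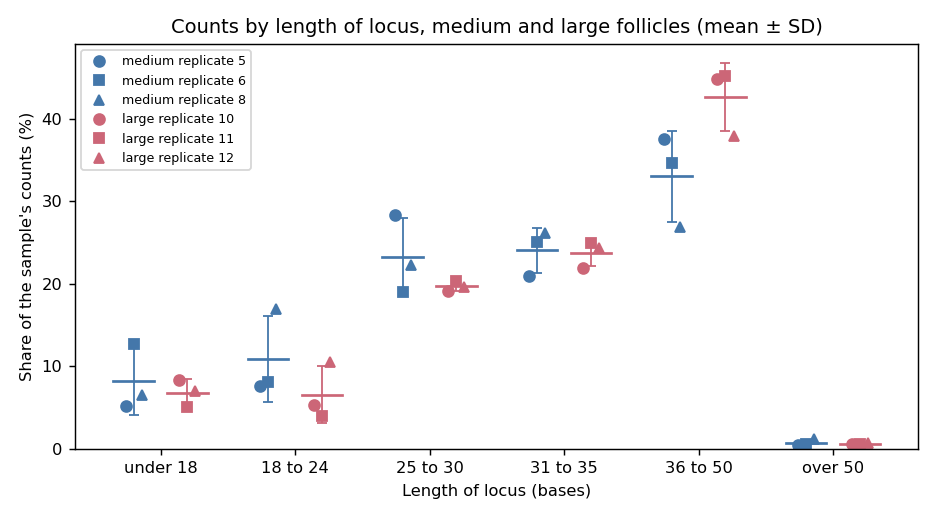
Share of each sample's counts (%, vertical axis) on loci of 6 length classes (bases, horizontal axis) in EVs of 3 medium (blue) and 3 large (red) follicle pools; bars are the mean ± SD and each marker is a pool. The 3 large follicle pools lie above the 3 medium follicle pools at 36 to 50 bases, between 37.9% and 45.1% against 26.9% and 37.5%, and the groups overlap in the other 5 classes.

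The class that holds nearly all miRNA, 18 to 24 bases (5881 loci, 237 of them named miRNAs), took 7.59, 8.09 and 16.9% in medium and 5.25, 3.96 and 10.5% in large follicle EVs, with an exact permutation p of 0.4. Within it, the 22-base loci, the usual length of a mature miRNA, took 2.82, 2.60 and 6.70% in medium and 1.18, 1.02 and 2.92% in large follicle EVs. The part of the class outside the named miRNAs took 3.74, 4.37 and 5.79% in medium and 3.68, 2.54 and 4.87% in large follicle EVs. Thus in medium replicate 8 and large replicate 12 the class was larger mainly by its miRNAs.

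Loci of 25 to 30 bases (18061 loci, 10 of them named miRNAs) took 28.3, 19.0 and 22.3% in medium and 19.2, 20.3 and 19.6% in large follicle EVs (exact permutation p = 0.4). At 25 bases alone the groups did not overlap, with 10.6, 3.23 and 4.60% in medium and 1.82, 1.44 and 1.80% in large follicle EVs (exact permutation p = 0.1). The 15 loci of 25 bases with over 10000 counts on chromosome 25, between 32465610 and 32472060, accounted for much of this, with 9.17, 2.00 and 3.14% of all counts in medium and 0.528, 0.260 and 0.718% in large follicle EVs. They were not alike in level, from 403 to 12677 CPM in medium replicate 5, nor in change, with log2 fold changes of -3.71 to -0.85. Whether they share reads was not examined, since their sequences were not analysed here. Loci of 27 bases, the highest of this class by single length in large follicles, took 5.37, 5.36 and 7.80% in medium and 6.44, 7.73 and 9.75% in large follicle EVs.

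Loci of 31 to 35 bases were the most numerous, with 54608 loci or 53.6% of the table, yet took only 20.9, 25.0 and 26.2% in medium and 21.9, 25.0 and 24.3% in large follicle EVs (exact permutation p = 0.8). Loci over 50 bases (451 loci) took 0.443, 0.527 and 1.17% in medium and 0.591, 0.605 and 0.706% in large follicle EVs (exact permutation p = 1.0). The shortest class, under 18 bases (1012 loci, 2 of them named miRNAs), took 5.20, 12.7 and 6.54% in medium and 8.30, 5.01 and 7.01% in large follicle EVs (exact permutation p = 0.8), and 86.3% of its counts in the 6 samples fell on 1 locus of 16 bases on chromosome 29. Without that locus the 16-base loci took 0.328, 0.372 and 0.381% in medium and 0.162, 0.105 and 0.198% in large follicle EVs, where the groups did not overlap (exact permutation p = 0.1).

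**Figure D2:**
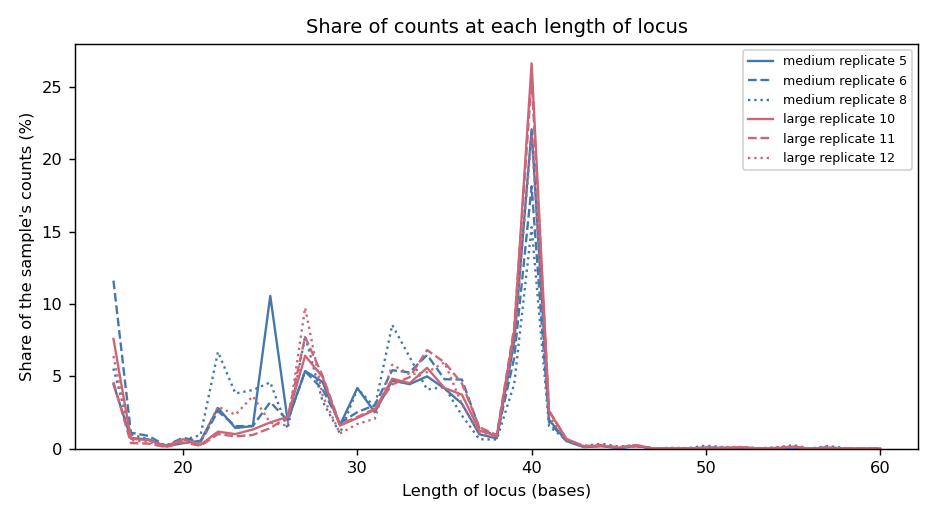
Share of each sample's counts (%, vertical axis) at each length of locus up to 60 bases (horizontal axis), with 1 line per pool, blue for medium and red for large follicles. The lines peak at 40 bases, from 15.3% to 22.1% in medium and from 21.7% to 26.7% in large follicle EVs, and at 25 bases medium replicate 5 reaches 10.6%.

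The locus with the most counts in each class showed how far single sequences carried these shares. At 16 bases it lay on the plus strand of chromosome 29 from 834909 to 834924, with 41378, 112550 and 51678 in medium and 74369, 45048 and 62158 in large follicle EVs (CPM). At 24 bases it lay on chromosome 7 from 53516597 to 53516620, with 2268, 1047 and 13669 in medium and 806, 729.8 and 22384 in large follicle EVs (CPM), so that medium replicate 8 and large replicate 12 exceeded the other pools several times over. Neither passed the test, with total-scaled log2 fold changes of -0.18 and 0.49.

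On chromosome 4 the highest locus of 25 to 30 bases (27 bases, 112951033 to 112951059) lay 34 bases after the highest locus of 31 to 35 bases (32 bases, 112950967 to 112950998), on the same strand. The 27-base locus had 4287, 5747 and 17987 in medium and 6357, 7864 and 19345 in large follicle EVs (CPM) and the 32-base locus 6011, 7983 and 17385 in medium and 6182, 3886 and 8503 in large follicle EVs (CPM). Their log2 fold changes were 0.26 and -0.76, neither past the test. The highest locus of 36 to 50 bases (36 bases, chromosome 2, 125390396 to 125390431) had 1204, 4302 and 6148 in medium and 741, 462 and 1479.9 in large follicle EVs (CPM), a log2 fold change of -2.12 that did not pass the test over all loci (false discovery rate, FDR, 0.228). The highest locus over 50 bases (55 bases, chromosome 18, 58243270 to 58243324) had 218, 289.9 and 609 in medium and 332, 338 and 342 in large follicle EVs (CPM).

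Scaled by the total count of all loci, 138 loci were lower and 0 were higher in large than in medium follicle EVs. They were called at an FDR under 0.05 by edgeR's quasi-likelihood test over the 85601 loci with enough counts, so 0.161% of those tested were called lower and 0.0% higher. At an unadjusted p under 0.05 there were 787 higher and 2027 lower loci, and by DESeq2 13 were called higher and 649 lower. The 138 loci were 27 named miRNAs and 111 others, with log2 fold changes of up to -1.45 and a median of -3.13, and in each of them every large pool lay below every medium pool. Over all tested loci the CPM of the groups did not overlap for 2.4% with large lower and for 6.4% with large higher, and the median log2 fold change was 0.28. Centring that median near 0 by TMM over all loci left 0 calls by the same quasi-likelihood threshold (5633 loci at an unadjusted p under 0.05), while DESeq2, whose size factors also put the median near 0 (-0.027), called all 138 among its own. Leaving out 1 pool gave from 28 (large replicate 11) to 535 calls (large replicate 12).

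Short loci carried the calls. Under 18 bases 20 of 752 tested loci (2.66%) were lower, at 18 to 24 bases 62 of 4978 (1.25%), at 25 to 30 bases 44 of 16072 (0.274%), at 31 to 35 bases 10 of 44088 (0.0227%), at 36 to 50 bases 2 of 19261 (0.0104%) and over 50 bases 0 of 450. The median log2 fold change went the same way, from -0.53 under 18 and at 18 to 24 bases to 0.16, 0.33 and 0.37 in the next 3 classes, and it was -0.28 over 50 bases. At 18 to 24 bases outside the named miRNAs 35 of 4741 loci were lower, with a median of -0.49. By contrast, the named miRNAs had a median of -1.27, and 230 of 249 lay below 0.

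The 111 called loci outside the named miRNAs formed 88 separate stretches of the genome, taking neighbours within 1000 bases as 1 stretch. A single locus of the 111 is in the authors' list of predicted miRNAs, which holds 455 loci. The 3 with the largest falls had no count in any large follicle pool. On chromosome 15, the 23-base locus from 22134738 to 22134760 had 69, 38 and 19 counts in medium follicle EVs and was at least 38.7-fold lower in large, against a floor of 3 counts over the group. On chromosome 19, the 20-base locus from 38482457 to 38482476 had 36, 37 and 8 counts (at least 24.8-fold lower), and on chromosome 9 the 16-base locus from 16769657 to 16769672 had 10, 28 and 6 counts (at least 13.5-fold lower).

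The chromosome 15 locus lies 13 bases before the named miR-34b-3p locus (22134774 to 22134796) on the same strand, where the 5p arm of a hairpin would lie. miR-34b-3p itself had 277, 58 and 372 counts in medium and 14, 4 and 84 counts in large follicle EVs. Its neighbour miR-34c, from 22135438 to 22135460, fell, and is given with its family.

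Among called loci with more reads, chosen after their values were seen, a 22-base locus on chromosome 8 (25409642 to 25409663, plus strand) stood out. It had 646, 423 and 445 in medium and 41.2, 30.5 and 42.9 in large follicle EVs (CPM), and the highest large pool lay far below the lowest medium pool. Its total-scaled log2 fold change was -3.73 ± 0.34 (SE; quasi-likelihood FDR 2.91e-05). A 31-base locus 69 bases downstream (25409733 to 25409763) also fell, with 237, 135 and 446 in medium and 109, 44.8 and 63.2 in large follicle EVs (CPM) and a log2 fold change of -1.91 ± 0.38. Loci between and around them did not pass the test, among them the 25-base locus from 25409684 to 25409708 with a log2 fold change of -0.17 and the 36-base locus from 25409843 to 25409878 with 0.81. Neighbouring loci of this stretch thus had unequal values.

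Among the called loci outside the named miRNAs, a similar pairing was found at 6 places on chromosomes 15, 16, 19 and 23. At each, a called locus of 27 to 30 bases and a called locus of 33 bases lay beside each other. At 5 of the places the pair lay within 73 to 76 bases. Only loci called lower were searched for such pairs, so that both members were lower follows from the choice. Neighbours of these lengths that were not called were not counted. On chromosome 16 the stretch held 2 called loci of 33 bases, and the values given next include only the first of them. The 33-base loci had nearly the same values at all 6 places, 100.4 to 107 CPM in medium replicate 5 and 42.3 to 47.6 CPM in large replicate 10. Their log2 fold changes were -1.77 to -1.71, and the second locus on chromosome 16 had -1.67. The loci of 27 to 30 bases ranged from 46.5 to 585 CPM in medium replicate 5 and from 0.924 to 8.11 CPM in large replicate 10. They had the larger falls, with log2 fold changes of -3.86 to -3.56. Whether these loci share reads, and which RNA they come from, was not analysed here.

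The called loci with the highest counts in the other classes add to this. The chromosome 25 locus from 32471121 to 32471145 had 12677, 2646 and 3959 in medium and 623, 247 and 628 in large follicle EVs (CPM), with medium replicate 5 far above the other pools, and a log2 fold change of -3.69 ± 0.54 (FDR 0.00423). A 17-base locus on chromosome 18 (56396892 to 56396908) had 103, 92.9 and 258 in medium and 9.96, 8.50 and 44.8 in large follicle EVs (CPM), and a 36-base locus on the X chromosome (117396220 to 117396255) had 176, 104 and 332 in medium and 67.7, 24.7 and 41.1 in large follicle EVs (CPM). Their log2 fold changes were -2.84 and -2.20. The largest falls above the floor were at 16 bases, on chromosomes 13, 17 and X (72788267, 54080862 and 95873435), with log2 fold changes of -5.27, -5.14 and -5.08 and at most 7 counts in a large follicle pool.

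Within the miRNA set, where counts are set against the other miRNAs of the same pool (normalized count, the CPM of the set after TMM), 26 of 249 loci (10.4%) differed between large and medium follicle EVs. Of these, 14 were higher in large (5.62%), led by miR-150, miR-486, miR-142-5p, miR-204 and miR-222, and 12 were lower (4.82%), led by miR-2284w, miR-335, miR-873, miR-2284z and miR-1307-5p. The calls are at an FDR under 0.05 by the quasi-likelihood test, and 80 loci had an unadjusted p under 0.05. In all 26 the groups did not overlap, as they did not for 18.5% of the set with large higher and for 17.7% with large lower. The median log2 fold change of the set was 0.00029, so the values are relative to a centre near 0. No call remained without medium replicate 5, medium replicate 6 or large replicate 11, and with the 6 large and medium samples alone, without the small follicles' share in the estimate of spread, only miR-204 and miR-486 passed (FDR 0.0484). Without medium replicate 8 and large replicate 12, an alternative chosen after seeing the data, 34 loci passed (8 higher, 26 lower), 19 of them among the 26. miR-150, miR-486, miR-328, miR-126-5p, miR-222 and both miR-125b loci then fell short (FDR 0.0508 to 0.112). All 26 log2 fold changes kept their sign in every one of these fits.

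**Figure D3:**
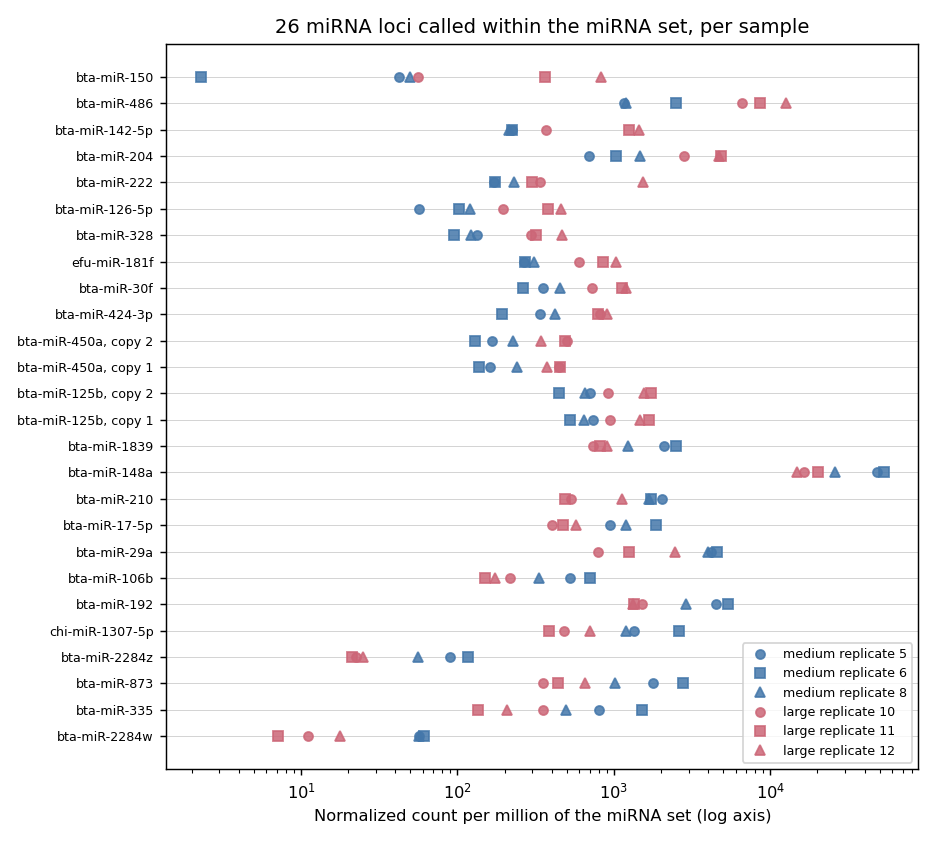
Normalized count (CPM of the miRNA set, log axis) of the 26 called loci in 3 medium (blue) and 3 large (red) follicle EV pools, sorted by log2 fold change, with 1 marker per pool. In each row the 3 markers of 1 size lie on 1 side of those of the other; miR-150 spans the widest range within a group, from 2.28 to 49.7 in medium and from 55.8 to 829.5 in large follicle EVs.

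miRNAs of blood cells were among those with the largest rises. miR-486, known from the red cell lineage (chromosome 27, 36261888 to 36261910, minus strand), had normalized counts of 1164, 2488 and 1200 in medium and 6547, 8547 and 12641 in large follicle EVs. The lowest large pool lay above the highest medium pool, with a log2 fold change of 2.52 ± 0.70 (SE; FDR 0.0446). miR-451, matured by Argonaute without Dicer and typical of red cells, had 112, 219 and 69.1 in medium and 173, 377 and 585 in large follicle EVs, groups that overlapped, with a log2 fold change of 1.53 ± 0.81 (FDR 0.205). Together the pair took 0.149, 0.271 and 0.126% of the set in medium and 0.782, 0.857 and 1.13% in large follicle EVs; miR-144 was not analysed here.

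Of 4 white blood cell miRNAs 2 rose, against 5.62% of the set. miR-142-5p, restricted to blood cells (chromosome 19, 9527357 to 9527378, minus strand), had normalized counts of 222, 223 and 215 in medium and 368, 1243 and 1443 in large follicle EVs. The rise came to 2.21 ± 0.46 on the log2 scale (FDR 0.0297). miR-150, abundant in mature lymphocytes (chromosome 18, 56407900 to 56407922, minus strand), had 42.2, 2.28 and 49.7 in medium and 55.8, 362 and 829.5 in large follicle EVs, a wide spread in which large replicate 10 lay just above medium replicate 8, and a log2 fold change of 3.69 ± 0.91 (FDR 0.0415). miR-150 is in the set through large follicles alone, the group in which it was high, so its rise is not independent of that choice. miR-146a and miR-155, both induced in inflammation, had log2 fold changes of 1.44 and 0.55 and did not pass the test. The 4 together took 0.128, 0.143 and 0.105% of the set in medium and 0.0766, 0.234 and 0.471% in large follicle EVs, where large replicate 10 was the lowest of the 6 pools; miR-223 was not analysed here. By CPM of all loci the red cell pair summed to 57.6, 102 and 142 CPM in medium and 124, 123 and 639.7 CPM in large follicle EVs and the white cell miRNAs to 49.4, 53.7 and 117 CPM in medium and 12.1, 33.5 and 266 CPM in large follicle EVs, so on that scale the groups overlapped and large replicate 12 alone was high. The part of blood cells in the other values was not tested.

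Markers of other cells gave the following levels. The 6 epithelial miRNAs, 5 of them of the miR-200 family or miR-375, held 0 calls within the set with a median log2 fold change of -1.33. They summed to 112, 39.1 and 123 CPM in medium and 19.5, 15.2 and 77.6 CPM in large follicle EVs, and miR-429 was at 0 in large replicate 11. miR-182, the member with the opposite sign, had normalized counts of 226, 314 and 228 in medium and 513, 583 and 1169 in large follicle EVs (log2 fold change 1.57, FDR 0.0590). The 8 loci of mesenchymal miRNAs (miR-143, miR-145, miR-199 and miR-214) held 0 calls, a median of 0.043, and sums of 409.7, 125 and 744 CPM in medium and 106, 74.3 and 557 CPM in large follicle EVs. miR-126-5p, from an intron of the endothelial gene EGFL7, rose, with normalized counts of 56.8, 103 and 119.7 in medium and 195, 377 and 458 in large follicle EVs and a log2 fold change of 1.88 ± 0.47 (FDR 0.0415). It is given here because it was called within the set, and no list of endothelial miRNAs was drawn up. Liver and muscle markers (miR-122, miR-1, miR-133 and miR-206) were not analysed here.

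miRNAs studied in the gonads were among the counts of every pool. miR-202, a gonad miRNA, had normalized counts of 11809, 16544 and 22112 in medium and 9118, 7900.2 and 29822 in large follicle EVs for its 3p arm, a log2 fold change of -0.11 ± 0.48 that did not pass the test. Of the 8 loci of the gonad and granulosa list 0 were called, with a median of -0.43. miR-132, induced by gonadotropins in granulosa cells, had 27.5, 95.7 and 190.4 in medium and 112, 455 and 2068 in large follicle EVs. The highest medium pool lay above the lowest large pool, and its log2 fold change of 3.07 ± 0.91 just missed the threshold (FDR 0.0518). miR-378, which targets aromatase, had log2 fold changes of -0.61 and -0.50 at its 2 loci, and miR-224, induced by TGF-beta in granulosa cells, -0.35, none past the test.

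Other miRNAs that rose came from several families. Counts of called loci by family stand against 5.62% of the set called higher and 4.82% called lower. With so few members, 1 or 2 calls are not read as a result about a family. miR-204, hosted by TRPM3 (chromosome 8, 47259589 to 47259612, minus strand), had normalized counts of 689, 1037 and 1459.5 in medium and 2822, 4831 and 4699 in large follicle EVs. The lowest large pool stood at 2822 against 1459.5 in the highest medium pool, and the log2 fold change was 1.95 ± 0.46 (FDR 0.0415). miR-328 had 134, 95.7 and 122 in medium and 296, 319.7 and 465 in large follicle EVs, again without overlap (log2 fold change 1.62 ± 0.42, FDR 0.0437). miR-222, which with miR-221 represses the cell cycle inhibitor p27, had 171, 173 and 230.1 in medium and 335, 298 and 1525 in large follicle EVs. That rise rested mostly on large replicate 12, and without medium replicate 8 and large replicate 12 the log2 fold change was 0.88 in place of 1.93 (FDR 0.108). Its partner miR-221 had 249, 155 and 252 in medium and 78.1, 114 and 1268 in large follicle EVs and did not pass, so 1 of the 2 rose.

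The miR-424, miR-450 and miR-542 cluster of the X chromosome is known for growth arrest and differentiation. In it 3 of 7 loci rose, against 5.62% of the set, and 0 fell. miR-424-3p (chromosome X, 18185457 to 18185477, minus strand) had normalized counts of 336, 194 and 421 in medium and 819.8, 789 and 906 in large follicle EVs, a log2 fold change of 1.40 ± 0.39 (FDR 0.0446). The 2 miR-450a loci, neighbours on the minus strand, had log2 fold changes of 1.24 and 1.33 and nearly equal counts, so their reads cannot be assigned to either with certainty. miR-424-5p, the arm with the miR-15 and miR-16 seed, had 266, 421 and 146 in medium and 368, 199 and 115 in large follicle EVs and a log2 fold change of -0.30, and miR-450b had 0.20. The cluster took 0.761, 0.522 and 0.635% of the set in medium and 0.851, 0.821 and 0.651% in large follicle EVs.

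Of 13 loci of the miR-10, miR-99, miR-100 and miR-125 families 2 rose, against 5.62% of the set. Both were miR-125b, the vertebrate counterpart of the worm timing gene lin-4. The chromosome 15 copy (33298867 to 33298888) had normalized counts of 702, 444 and 651 in medium and 920.2, 1719 and 1555 in large follicle EVs and the chromosome 1 copy 733, 522 and 645 in medium and 948, 1684 and 1468 in large follicle EVs. Their log2 fold changes were 1.22 ± 0.34 and 1.11 ± 0.32, and since the mature sequence is shared these are not independent values. miR-100 and miR-125a had log2 fold changes of 1.10 and 0.90 without overlap of the groups, but FDRs of 0.0740 and 0.0899. miR-10b, among the most abundant miRNAs, had -0.0092, and the list's median was 0.23.

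In the miR-181 family, which acts in lymphocyte signalling and differentiation, 1 of the 8 loci named for it rose, against 5.62% of the set. The locus that rose is no copy of the main arm. This locus, named miR-181f after a bat miRNA (chromosome 11, 95709487 to 95709508, plus strand), had normalized counts of 266, 269 and 309 in medium and 597, 845 and 1035 in large follicle EVs, a log2 fold change of 1.55 ± 0.32 and the lowest FDR of the set together with miR-142-5p, miR-192 and miR-873 (0.0297). It lies just after the miR-181a locus that starts at 95709449 on the same strand, as the other, less abundant arm of that hairpin, and so would not carry the family's seed. None of the other 7 loci was called. In 6 of the 8 loci every large pool was above every medium pool, against 18.5% of the set. Among them, 4 loci of miR-181a and miR-181b had log2 fold changes of 0.88 to 0.96 with FDRs of 0.0555 to 0.0782. Loci of the same name share the mature sequence, so these are not independent values. The family's median was 0.91 and it took 0.855, 0.869 and 0.908% of the set in medium and 1.59, 1.72 and 1.49% in large follicle EVs.

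Of 9 miR-30 loci 1 rose, against 5.62% of the set. miR-30f (chromosome 9, 10730976 to 10730999, minus strand) had normalized counts of 350.2, 262 and 452 in medium and 719, 1123 and 1203 in large follicle EVs and a log2 fold change of 1.52 ± 0.38 (FDR 0.0415). miR-30d, among the most abundant miRNAs, had 14621, 19009 and 28085 in medium and 32363, 41341 and 45036 in large follicle EVs. Its groups did not overlap, but the log2 fold change of 0.94 ± 0.36 had an FDR of 0.0899. The family had a median of 0.62 and took 6.08, 6.87 and 6.36% of the set in medium and 10.3, 8.95 and 6.52% in large follicle EVs.

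**Figure D4:**
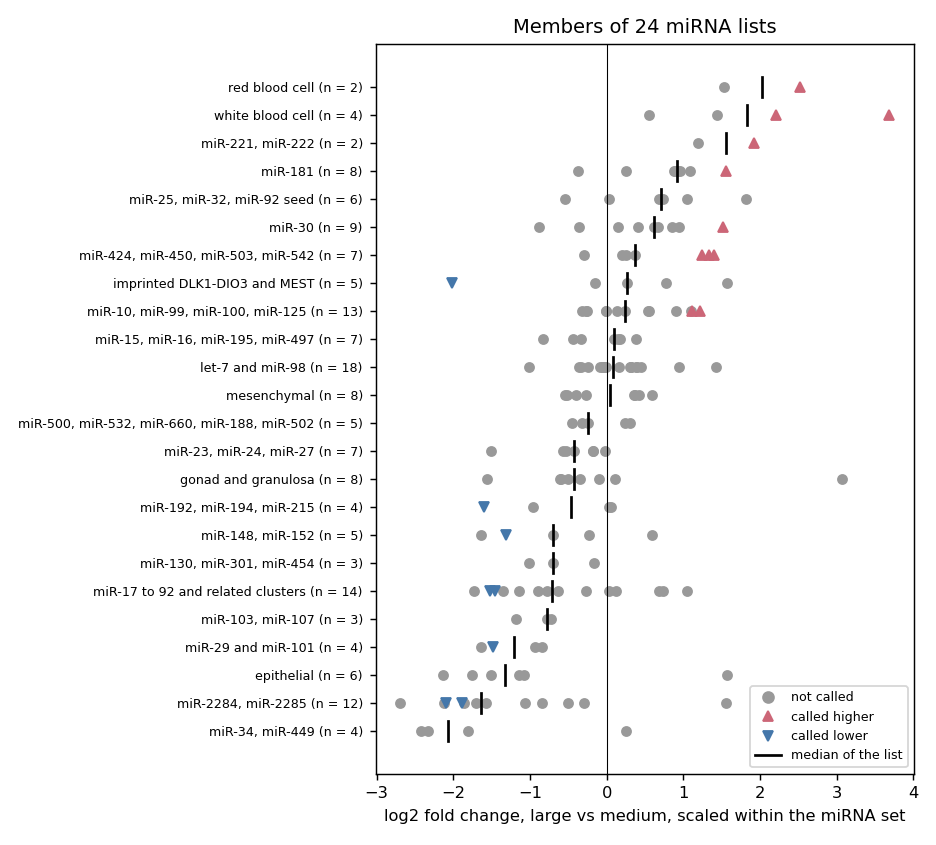
Log2 fold change of large versus medium follicle EVs, scaled within the miRNA set (horizontal axis), for the members of 24 lists of miRNAs, sorted by the list's median (black bar). Red triangles are loci called higher, blue triangles loci called lower and grey points loci that were not called; medians run from -2.07 in the miR-34 and miR-449 list to 2.02 in the red blood cell list.

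Among miRNAs that fell, miR-148a was the most abundant. It is a miRNA of the seed shared with miR-148b and miR-152, whose targets include the DNA methyltransferase DNMT1 (chromosome 4, 70414294 to 70414315, plus strand). Its normalized counts were 48379, 53477 and 26001 in medium and 16368, 20212 and 14882 in large follicle EVs, so that the highest large pool lay below the lowest medium pool. The log2 fold change was -1.31 ± 0.38 (FDR 0.0478). Its mean share of the set went from 4.53% ± 1.69 to 1.71% ± 0.375 (SD, n = 3). miR-152 had -1.64 (FDR 0.0555) and miR-148b -0.24, neither past the test. So 1 of 5 loci of this seed list fell, against 4.82% of the set, and 0 rose. miR-148a-5p, the other arm, had 0.59.

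Of 14 loci of the miR-17 to 92 cluster and its relatives, known to promote proliferation, 2 fell (4.82% of the set) and 0 rose (5.62% of the set). miR-17-5p (chromosome 12, 66226567 to 66226590, plus strand) had normalized counts of 944, 1857 and 1199 in medium and 402, 476 and 575 in large follicle EVs and a log2 fold change of -1.46 ± 0.35 (FDR 0.0415). miR-106b, of a cluster in an intron of MCM7, had 526, 699 and 330.3 in medium and 218, 149 and 173 in large follicle EVs and -1.52 ± 0.43 (FDR 0.0478). Values differed within the clusters: miR-19a and miR-20a had -1.73 and -1.15, while miR-92a, transcribed with them on chromosome 12, had 0.73, and miR-93 and miR-25, transcribed with miR-106b, had -0.27 and 0.034. miR-92b, with the same seed as miR-92a and another locus, had 6091, 4559 and 9988 in medium and 11215, 15893 and 45417 in large follicle EVs and a log2 fold change of 1.81 ± 0.57 (FDR 0.0555). The 6 loci of the miR-25, miR-32 and miR-92 seed list held 0 calls, with a median of 0.70, against -0.71 for the 14 cluster loci.

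miR-29a, which targets collagens and other matrix genes, fell, with normalized counts of 4147, 4536 and 3972 in medium and 792, 1250.4 and 2474 in large follicle EVs and a log2 fold change of -1.48 ± 0.40 (FDR 0.0444). miR-29c had -1.65 (FDR 0.0522) and the 2 miR-101 loci -0.93 and -0.85. So 1 of 4 loci of that list was called lower, against 4.82% of the set, and all 4 lay below 0. miR-192, abundant in gut, liver and kidney (chromosome 29, 43731679 to 43731700, plus strand), fell, with 4518, 5331 and 2882 in medium and 1511, 1343 and 1325 in large follicle EVs and a log2 fold change of -1.61 ± 0.34 (FDR 0.0297). Its cluster partner miR-194 had 0.055 at the neighbouring locus of chromosome 29, and miR-215, of the same seed as miR-192, had -0.96, which leaves 1 of 4 loci of that list called. miR-210, induced by hypoxia, fell, with 2031, 1718 and 1687 in medium and 529.8, 490.2 and 1123 in large follicle EVs and -1.33 ± 0.39 (FDR 0.0478).

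miR-335, from an intron of the imprinted gene MEST (chromosome 4, 95071006 to 95071028, plus strand), had normalized counts of 807, 1513 and 495 in medium and 351, 135 and 207 in large follicle EVs and a log2 fold change of -2.02 ± 0.53 (FDR 0.0444). Its 3p arm had -0.15, and the other members of the imprinted list, miR-127, miR-410 and miR-411a of the DLK1-DIO3 region, had 0.77, 0.27 and 1.57. Thus 1 of 5 loci of the list fell, against 4.82% of the set, and 0 rose. miR-873 (chromosome 8, 15159569 to 15159590, plus strand) had 1767, 2759 and 1017 in medium and 351, 440.5 and 654 in large follicle EVs and a log2 fold change of -1.93 ± 0.41 (FDR 0.0297). miR-1307-5p had 1335, 2606 and 1194 in medium and 479.6, 384 and 702 in large follicle EVs (-1.70 ± 0.42) and miR-1839 2077, 2501 and 1229.5 in medium and 731, 817 and 907 in large follicle EVs (-1.24 ± 0.34), both lower in every large pool.

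The miR-2284 and miR-2285 family, expanded in ruminants, held 12 loci, of which 2 fell, against 4.82% of the set, and 0 rose. miR-2284w had 31, 27 and 67 counts in medium and 2, 1 and 10 counts in large follicle EVs, and a set-scaled log2 fold change of -2.10 ± 0.52 (FDR 0.0415). The large follicle value rests on few reads, and this locus is in the set through small follicles alone. miR-2284z had normalized counts of 89.8, 116 and 55.6 in medium and 22.3, 21.3 and 24.8 in large follicle EVs and -1.89 ± 0.49 (FDR 0.0437). Its large follicle value also rests on few reads, and it too is in the set through small follicles alone. In 8 of the 12 loci every large pool lay below every medium pool, against 17.7% of the set, and the median was -1.64. miR-2284x, the most abundant member, had 6096, 5723 and 6442 in medium and 3391, 3915 and 5506 in large follicle EVs and a log2 fold change of -0.51, whereas miR-2285aa had 1.56. The members are similar in sequence, so the authors' counting could split reads between them.

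Other lists held no call within the set. The miR-34 and miR-449 family, linked to the p53 response and to ciliated epithelia, had the lowest median (-2.07, 4 loci). miR-34c (chromosome 15, 22135438 to 22135460, plus strand) had normalized counts of 2306, 734 and 415 in medium and 340.2, 256 and 65.4 in large follicle EVs, a log2 fold change of -2.42 ± 0.73 (FDR 0.0548), and miR-449a -2.33 on few reads. The miR-103 and miR-107 loci lay below 0 (median -0.77), as did the 7 loci of miR-23, miR-24 and miR-27 (median -0.42) and the 3 of miR-130 and miR-301 (median -0.71). The 18 let-7 and miR-98 loci were divided, 9 above and 9 below 0, with a median of 0.075 and shares of 17.5, 20.4 and 12.9% of the set in medium and 19.3, 19.4 and 9.56% in large follicle EVs. The miR-15, miR-16, miR-195 and miR-497 loci had a median of 0.10 and the X chromosome cluster of miR-500, miR-532 and miR-660 -0.25.

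Of the 10 most abundant miRNAs 1 was called within the set. The 10 with the highest mean share took 44.9%, 46.8% and 49.0% of the set in medium and 43.8%, 42.2% and 43.6% in large follicle EVs, so every large pool lay below every medium pool. The called locus was miR-148a, given above. miR-22-3p, the first of the 10, had normalized counts of 76218, 74229 and 133960 in medium and 80547, 86867 and 118520 in large follicle EVs and a log2 fold change of 0.0077 ± 0.35. miR-10b and miR-27b had -0.0092 ± 0.30 and -0.028 ± 0.33. miR-423-5p had 31076, 62337 and 68159 in medium and 10858, 11744 and 58480 in large follicle EVs, high in large replicate 12 alone of its group. Its log2 fold change of -0.99 ± 0.61 had an FDR of 0.283, and without medium replicate 8 and large replicate 12 it was -2.05 (FDR 0.0221). miR-191, miR-92a and miR-30d had 0.43, 0.73 and 0.94, and the 2 let-7f loci -0.032 and -0.04.

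Scaled by the total count of all loci, the miRNA picture was a different one. Of the 249 loci 27 were lower and 0 higher (132 lower and 2 higher at an unadjusted p under 0.05; 46 lower and 0 higher by DESeq2), against the 0.161% of all loci called lower, and 9 of the 27 were also lower within the set. The 14 loci that rose within the set had no call by this scale, and in none of them did the groups separate: 10 had a log2 fold change above 0, at most 2.62 (miR-150), and 4 below. The 12 that fell within the set were below the medium pools in every large pool on both scales. With TMM over all loci 0 of the 249 were called (lowest FDR 0.217, median log2 fold change -1.91). Without 1 pool the count of lower loci ran from 5 (large replicate 11) to 105 (large replicate 12).

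**Figure D5:**
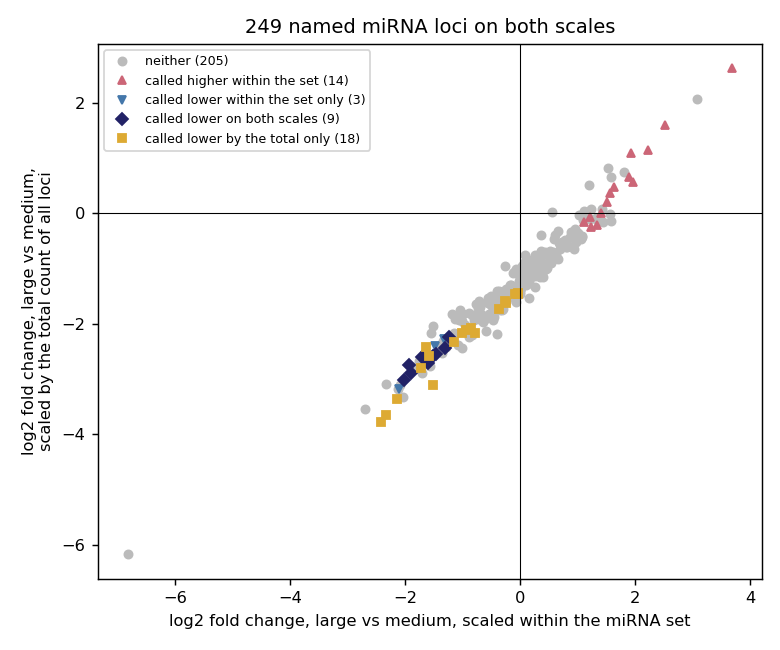
Log2 fold change of large versus medium follicle EVs for the 249 named miRNA loci, scaled within the miRNA set (horizontal axis) and by the total count of all loci (vertical axis). Points lie on a band shifted downward, with 230 of 249 below 0 by the total; the 14 loci called higher within the set (red triangles) lie between -0.26 and 2.62 by the total, and 9 loci are called lower on both scales (diamonds).

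let-7g, of the family that drives differentiation and is held back by LIN28, had the lowest FDR by the total. Its CPM was 453, 613 and 458 in medium and 88.5, 98.9 and 151 in large follicle EVs, and the log2 fold change -2.17 ± 0.24 (SE; quasi-likelihood FDR 0.000231). The groups were far apart for miR-148a as well, with 2186, 2009 and 2899.5 in medium and 301, 278 and 719.8 in large follicle EVs (CPM) and a log2 fold change of -2.45 ± 0.33 (FDR 0.00294). miR-335 had 36.4, 56.8 and 55.3 in medium and 6.47, 1.86 and 10.0 in large follicle EVs (CPM) and -3.01 ± 0.42 (FDR 0.00378). These 3 and miR-34c were called without any 1 of the 9 pools.

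miR-34c had 104, 27.6 and 46.2 in medium and 6.26, 3.52 and 3.17 in large follicle EVs (CPM), with every large pool below every medium pool, and a log2 fold change of -3.78 ± 0.55 (FDR 0.00423). let-7f had 1425, 1997 and 2719.8 in medium and 806, 639 and 799.6 in large follicle EVs (CPM) at its X chromosome locus, and log2 fold changes of -1.45 there and -1.47 at the chromosome 8 locus, which share the mature sequence. Both let-7f loci and let-7i (-1.46) had values near 0 within the set. miR-192 (-2.72), miR-30e-5p (-1.74) and miR-148b (-1.63) completed the 10 with the lowest p. Further called loci were miR-200b-3p (-3.11) and miR-141 (-3.37) of the epithelial list, miR-449a (-3.66), and miR-19a, miR-19b and miR-20a (-2.81, -2.17 and -2.34).

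By list, against the 10.8% of the named loci called lower by the total, the members called were 4 of 18 let-7 and miR-98 loci, 5 of 14 of the miR-17 to 92 clusters, 3 of 5 of miR-148 and miR-152, 2 of 4 of miR-34 and miR-449, 2 of 4 of miR-29 and miR-101, 2 of 6 epithelial, 2 of 12 of miR-2284 and miR-2285, 1 of 9 of miR-30, 1 of 4 of miR-192, miR-194 and miR-215 and 1 of 5 of the imprinted list, and none of the other 14 lists. With so few members, a share such as 1 of 9 or 2 of 12 lies near that of all named loci. The median over the 249 was -1.27. Of the 24 lists 11 had a median above it, the highest being the red blood cell pair (1.21), the white blood cell miRNAs (0.59), miR-221 and miR-222 (0.80), miR-181 (-0.35) and the miR-25, miR-32 and miR-92 seed list (-0.53). The other 13 lay below it, the lowest being miR-34 and miR-449 (-3.22), miR-2284 and miR-2285 (-2.69), the epithelial miRNAs (-2.53) and miR-29 and miR-101 (-2.26).

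Whether the step from medium to large differed from that from small to medium was tested in the same fit, and 0 of the 249 loci passed (0.0%, lowest FDR 0.329, 17 at an unadjusted p under 0.05). The steps share the medium pools, and their values are given side by side. For 7 of the 26 loci called within the set the difference had an unadjusted p under 0.05 by edgeR's quasi-likelihood test. The 26 were chosen by their change from medium to large, which is part of that difference. The count of 7 therefore says nothing separate about the steps. miR-873 had a log2 fold change of 0.49 from small to medium and -1.93 in the next step (FDR of the difference 0.329). In the fit without medium replicate 8 and large replicate 12, chosen after seeing the data, miR-873 was the single locus called (FDR 0.0400). miR-126-5p had -0.78 and then 1.88, and miR-142-5p 0.034 and then 2.21. miR-1307-5p had 0.42 and -1.70, miR-17-5p 0.018 and -1.46, miR-2284w -0.079 and -2.10, and miR-2284z 0.034 and -1.89. Of all 26 called loci, 21 had log2 fold changes of the same sign in both steps. Among these, miR-335 had -2.32 and -2.02, and miR-424-3p 1.40 and 1.40.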

How the data were processed

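Small RNA was sequenced (single reads of up to 50 bases) from EVs of bovine follicular fluid, with 3 pools per follicle size. Per the labels and methods, the authors mapped reads with BWA 0.7.5a to UMD3.1, merged the 9 samples, kept loci with a mean of at least 45 reads per base, trimmed each to its dense region and deposited raw counts per locus, without normalization; how reads with several matches were assigned is not given in the sources used here. Deposited counts were used as they are, and names were joined by locus identifier. Totals per sample and their limits stand in the report. Length is end minus start plus 1.

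The named loci were fitted as a set (TMM within the set), and all loci kept by filterByExpr (85601) with the total count as library size, with edgeR 4.0.16 and limma 3.58.1 under R 4.3.3 (glmQLFit and glmQLFTest, 9 libraries in 3 size groups, Benjamini-Hochberg over each table, FDR under 0.05). All tests are two-sided. Shares and arm ratios were compared by exact permutation in Python 3.11.15 with numpy 2.4.6, pandas 2.3.3 and scipy 1.17.1, and figures were drawn with matplotlib 3.10.9. Alternatives were DESeq2 1.42.0, its size factors, edgeR's exact test, other scalings and filters, 1 locus per name, and leaving out samples. The procedure was tested on simulated data.

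Loci named are all called within the set, the 10 with the lowest p by the total, the 10 most abundant, members of 24 lists, the highest-count locus per length class, and the 3 largest falls among called loci. The 3 largest rises were planned as well, but 0 loci were called higher. Others are marked as chosen after their values were seen. The comparison and lists were chosen with earlier results of these data known. The authors' fold changes and p-values were not used, and sequences are not shown.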

Additional observations from a re-analysis of the deposited data

How the results depend on the processing

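For the 26 loci called within the set, other settings gave 65 calls at an FDR under 0.1, 63 by DESeq2, 55 by edgeR's exact test and 2 with large and medium samples only, and leaving out 1 pool gave from 0 to 24 (0 without medium replicate 5, medium replicate 6 or large replicate 11, and 5 and 15 without small replicates 1 and 2). Other settings gave 18 to 34. For the 27 named miRNA loci called lower by the total, DESeq2 gave 46, TMM over all loci 0, leaving out 1 pool 5 to 105 (11 without large replicate 10, 44 without medium replicate 6, 9 without medium replicate 8), and leaving out medium replicate 8 and large replicate 12 together, an alternative chosen after seeing the data, 63. For the 138 of all loci the values were 238 at an FDR under 0.1, 662 by DESeq2, 0 by TMM over all loci, 212 with large and medium samples only, 28 to 535 without 1 pool (55 without large replicate 10; 71, 332 and 60 without medium replicates 5, 6 and 8) and 376 without medium replicate 8 and large replicate 12. The test of the difference between the steps gave 0 in every other setting and 1 without those pools.

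The difference of large minus medium in the share of counts changed sign at 31 to 35 bases (-0.305 percentage points) without the 10 highest-count loci (0.294), without 1 pool (-1.88 to 0.759) and without medium replicate 8 and large replicate 12 (0.466). It did so over 50 bases (-0.0803) without 1 pool (-0.216 to 0.149) and without those pools (0.113), and under 18 bases (-1.39) without 1 pool (-2.87 to 0.900). At 36 to 50 bases it stayed above 0, and the share of named miRNA stayed lower in large follicles, in every setting run. Refits were run for the 26 loci called within the set and for 10 of the 27 called by the total, and none of these log2 fold changes changed sign. Of 440 refits of the loci called within the set 190 fell short of the threshold, and of 150 refits of those 10 loci by the total 18 did. The cause of these changes was not tested. No paired analysis was possible because large and medium samples share no replicate number and the labels do not say which pools come from the same collection. At 146617 to 1192597 miRNA counts per pool, low named loci rest on few reads.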

Other observations

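The relative use of the arms of a hairpin does not depend on either scaling, since both arms are counted in the same pool. Among the named loci 46 pairs of neighbours were arms of 1 hairpin, and 38 had at least 3 counts in every pool of the 6. For 10 pairs (26.3%) the log2 ratio of the arms (pseudocount 0.5) did not overlap between large and medium follicle EVs, 8 with a lower and 2 with a higher ratio of the more abundant to the other arm. The pairs named here were chosen after their values were seen, and the exact permutation p of each is 0.1, the smallest possible with 3 against 3.

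For miR-873 over miR-873-3p the log2 ratio was 1.61, 1.91 and -0.032 in medium and -0.57, -0.71 and -1.44 in large follicle EVs, where medium replicate 8 had nearly equal arms, and for miR-148a over miR-148a-5p it was 7.40, 7.62 and 6.56 in medium and 5.08, 5.42 and 5.58 in large follicle EVs. miR-423-5p over miR-423-3p gave 1.17, 1.16 and 2.02 in medium and -0.051, -0.59 and 1.12 in large follicle EVs. In the opposite direction, miR-21-5p over miR-21-3p gave 5.47, 5.02 and 5.40 in medium and 5.68, 6.93 and 6.48 in large follicle EVs, and miR-125a over miR-125a-3p 5.63, 5.66 and 5.44 in medium and 6.32, 7.72 and 6.38 in large follicle EVs. The less abundant arms of the last pairs had as few as 14 and 10 counts in a pool. On chromosome 1, miR-125b-3p over miR-125b gave 0.82, 1.40 and 1.65 in medium and 0.53, -0.26 and 0.70 in large follicle EVs, while the 5p arm of miR-125b has a further copy on chromosome 15.

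By length of the named loci, those of 24 bases (28 loci) had a median set-scaled log2 fold change of 0.50, those of 23 bases (72 loci) 0.060 and those of 22 bases (111 loci) -0.042. By the total count the medians were -0.74, -1.14 and -1.41.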
